A study of Rattus norvegicus with 3 samples.

Results

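Capillary endothelial cells were the cells of a rat thymic stromal library that the authors labelled EC:capEC. They numbered 636 of 13226 annotated cells, or 4.81% (95% exact Clopper-Pearson interval 4.45 to 5.19), and 59.4% of the 1070 cells with 1 of the endothelial labels EC:capEC, EC:aEC and EC:vEC. A cell's label was its projected label, or its initial cluster where no projected label was given. The 90 EC:aEC and 344 EC:vEC cells, called arterial and venous here after those labels, serve as the comparison. The labels came from the RNA of these same cells, so the differences between labels below describe them and test nothing.

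The tissue was thymus from Lewis rats aged 8 weeks. Lewis is an inbred strain, and the study's labels name no engineered allele and no treatment. The number of animals behind a library is not given in the sources used here. The stromal cells were freed with Liberase TH and DNase I and sorted as CD45 negative. A separate thymocyte library and 1 horizontal 10 µm section, read by Stereo-seq (RNA captured on a patterned chip), complete the series. Each group was 1 sample, so no difference has a replicate check, and every interval covers counting error only.

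Capillary endothelium lines the smallest vessels, where solutes, lipids and gases pass between blood and tissue. Its cells carry enzymes and transporters for that exchange, among them Car4, a membrane-bound carbonic anhydrase, and Gpihbp1, the anchor that holds lipoprotein lipase on the vessel wall. In the thymus, capillaries supply mainly the cortex, while venules near the border of cortex and medulla carry the selectins through which leukocytes enter tissue.

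The capillary cells held 4449162 UMIs, counts of distinct captured RNA molecules, with a median of 5805.5 per cell (693 to 35107). Arterial cells held a median of 7342.5 and venous cells one of 9585.5, so shares of cells with a UMI were taken after thinning each cell to 2000 UMIs, which left out 44 capillary, 3 arterial and 12 venous cells. The median share of mitochondrial UMIs was 1.04%, 1.09% and 1.20% in the 3 types. Of the 16160 barcodes of the stromal library, 38 (0.235%) also occurred in the thymocyte library, and none of these was a capillary cell.

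Levels below are UMIs per 1000000 UMIs (CPM), summed over the cells of a type. The 3 markers of the label did not behave alike. Car4 stood at 171 CPM (95% exact Poisson interval 159 to 183) in capillary cells, at 8.74 (3.51 to 18.0) in arterial cells and at 0 UMIs in venous cells, where a count of 0 allows up to 0.829 CPM. After thinning, 18.4% of capillary cells had a Car4 UMI, against 0 of 332 venous cells, which allows a share of up to 0.904%. C1qtnf9, which encodes a secreted protein of the adiponectin-related C1q/TNF family, stood at 249.7 CPM (235 to 265), against 40.0 (27.3 to 56.4) in arterial and 6.36 (4.03 to 9.54) in venous cells. A C1qtnf9 UMI was found in 26.5% of thinned capillary cells, 6.90% of arterial and 1.81% of venous cells, so most capillary cells showed neither marker at this depth. Pecam1, a junctional adhesion molecule of all endothelium, was at 1093, 996 and 1224 CPM and does not separate the labels.

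Most of the labelled cells, 534, lay in the authors' initial cluster Endo-1, 101 lay in Endo-2, and 1 lay in an epithelial cluster. The Endo-2 cells went partly against the label. In 21 of them the lymphatic endothelial genes Prox1, Lyve1, Reln and Mmrn1 gave 10 or more UMIs together (17 to 174, median 52), while no Endo-1 cell had more than 3. These 21 cells held Mmrn1 at 3580.4 CPM, Lyve1, a hyaluronan receptor of lymphatic vessels, at 3122 CPM, and Ccl21, a chemokine that draws CCR7-bearing cells, at 45643 CPM. Prox1, the transcription factor that specifies lymphatic endothelium, gave a UMI in 17 of the 21. They held 0 UMIs of Car4, C1qtnf9, Rgcc and Flt1 (up to 21.5 CPM for each) and 1 UMI of Gpihbp1. Other capillary genes were present, with 12 of the 20 on the capillary list at 1 UMI or more (2256 CPM in sum), Btnl9 in 14 of the 21 cells at 236 CPM, and Pecam1 in 20 of the 21.

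In 42 Endo-2 cells, 1 of them among those 21, a list of 10 fibroblast genes gave 20 or more UMIs. These cells were deep, with a median of 15394.5 UMIs, and held Dcn at 9950.3 CPM and Col3a1 at 6434 CPM, the genes of a small proteoglycan and of collagen III. Each of the 42 also had a Pecam1 UMI, with Gpihbp1 at 845 and C1qtnf9 at 116 CPM, so endothelial and fibroblast RNA shared the barcodes. The remaining 39 Endo-2 cells were shallow, with a median of 1593 UMIs, and held C1qtnf9 at 316 and Gpihbp1 at 1449.9 CPM. Among capillary cells of Endo-1, 8 passed the fibroblast minimum and none the lymphatic one. Both kinds of cell also occurred under the other labels. Of Endo-2 cells, 7 of 60 venous and 2 of 29 arterial cells passed the lymphatic minimum, and 31 and 20 the fibroblast one. Over all labelled cells the fibroblast list summed to 4757 CPM in capillary, 11607 in arterial and 4843 in venous cells, against 785, 722 and 706 within Endo-1. Every comparison was therefore also made within Endo-1, with 534 capillary, 61 arterial and 284 venous cells.

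**Figure D1:**
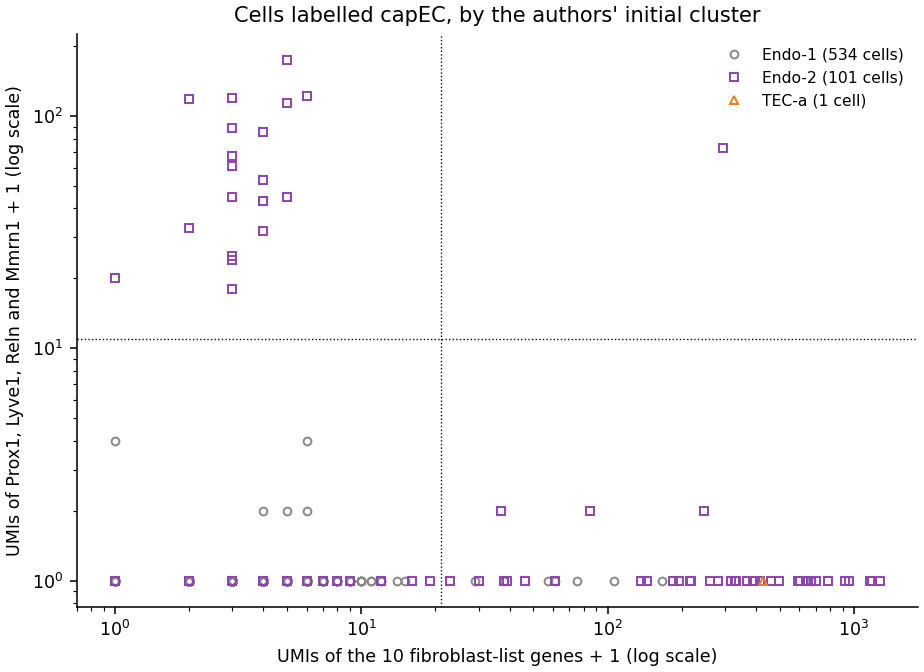
Each point is 1 capillary-labelled cell, with its UMIs of the fibroblast list plus 1 on the horizontal log axis and its UMIs of Prox1, Lyve1, Reln and Mmrn1 plus 1 on the vertical log axis, coloured by initial cluster; dotted lines mark 20 and 10 UMIs. The 21 cells above the horizontal line and most cells to the right of the vertical line came from Endo-2, while Endo-1 cells gather at the lower left.

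Apart from the fibroblast genes above, lists of thymocyte, myeloid and epithelial genes were low in the capillary cells. A thymocyte list summed to 33.0 CPM, and a myeloid list to 26.7 with C1qb and Itgam at 0. An epithelial list summed to 133 CPM with Psmb11 at 0. The mural list (smooth muscle and pericyte genes) was at 370.2 CPM in capillary, 813 in arterial and 230.3 in venous cells. Haemoglobin RNA came from 1 capillary cell with 1179 of the 1187 erythroid UMIs. Glycam1, a mucin ligand of L-selectin, came from another single cell with 4772 of 4784 UMIs, without which its level of 1075 CPM was 2.71.

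A fold of at least 2 was then asked of each gene, among genes with a mean of at least 10 CPM and 20 UMIs over the types compared. Against arterial cells, 174 of 9430 genes were at least 2-fold higher in capillary cells (1.85% of genes) and 517 were lower (5.48% of genes). Against venous cells, 372 of 9239 were higher (4.03% of genes) and 312 lower (3.38% of genes). Within Endo-1, 333 of 8954 genes were higher than in arterial cells (3.72% of genes) and 410 lower (4.58% of genes). Against venous cells of Endo-1, 437 of 8946 were higher (4.88% of genes) and 379 lower (4.24% of genes). The median log2 ratio of all genes lay between -0.03 and 0.07 in these comparisons. The comparisons with arterial and with venous cells share the capillary cells.

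The 12 leading genes were those with the largest smaller ratio to the other labels, taken from genes that reached 100 UMIs and were seen in at least 25% of capillary cells. After Car4 (19.5-fold over arterial, at least 206-fold over venous cells) and C1qtnf9 (6.25-fold and 39.3-fold) they were Timp4, Rgcc, Nr5a2, Gpihbp1, Bcl6b, Rbp7, Cyp4b1, Lcn2, Prag1 and Fscn1. The sizes of the first leads rested on few arterial and venous UMIs. With each cell thinned to 1000 UMIs, Car4 gave 110 UMIs in capillary, 1 in arterial and 0 in venous cells, a ratio to arterial cells of 16.2 (95% exact interval 2.84 to 644), and the ratio of C1qtnf9 to venous cells was 11.6 (5.73 to 27.2). In the 155 capillary, 11 arterial and 70 venous cells with at most 2 UMIs over the fibroblast, epithelial and mural lists, the ratio to arterial cells was 7.05 (1.92 to 58.7) for Car4, on 2 arterial UMIs, and 2.52 (1.14 to 6.96) for C1qtnf9, on 6. The gene just inside this choice was Fscn1, with a smaller ratio of 2.37, and those just outside were Fam89a, with 2.35, and Fabp5, with 2.29.

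Gpihbp1, Rbp7 and Cyp4b1 act on lipids or other lipophilic molecules. Gpihbp1 stood at 1896 CPM in capillary, 708 in arterial and 129.9 in venous cells, and was found in 79.1%, 46.0% and 17.5% of thinned cells. Its ratio to arterial cells was 2.68 (95% exact interval 2.46 to 2.92) and that to venous cells 14.6 (13.3 to 16.0). Rbp7, a cytosolic retinol-binding protein, was at 1879, 719 and 177 CPM. Cyp4b1, a cytochrome P450 enzyme, was at 84.1, 32.5 and 14.1 CPM. All 3 ranked capillary, arterial, venous from high to low, and within Endo-1 the capillary to arterial ratio was 2.25 for Gpihbp1, 2.21 for Rbp7 and 1.95, under 2-fold, for Cyp4b1. In the 155 capillary and 11 arterial cells with at most 2 UMIs over the fibroblast, epithelial and mural lists, the leads over arterial cells came under 2-fold for Gpihbp1 (1.42) and Cyp4b1 (1.17).

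Rgcc, a regulator of cell cycle progression, showed the widest gap to venous cells after the label markers among the leaders, at 532 CPM against 157 in arterial and 16.3 in venous cells. It was found in 50% of thinned capillary cells and 3.01% of venous cells. Its ratio to arterial cells was 3.38 (2.83 to 4.08) and that to venous cells 32.6 (25.2 to 43.0). Timp4, an inhibitor of matrix metalloproteinases, was at 134, 37.5 and 16.3 CPM, with ratios of 3.56 (2.47 to 5.33) and 8.19 (6.26 to 10.9). Fscn1, which bundles actin filaments, was at 193, 51.2 and 81.3 CPM, lowest in arterial cells. Its ratio to arterial cells was 3.76 (2.75 to 5.28).

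Transcription factors among them were Bcl6b, a zinc finger repressor, and Nr5a2, an orphan nuclear receptor. Bcl6b was at 89.9, 33.7 and 17.1 CPM, and Nr5a2 at 70.1, 25.0 and 21.0 CPM. Prag1, a pseudokinase scaffold, was at 54.8, 22.5 and 9.95 CPM. Lcn2, an iron-siderophore carrier, was at 151 CPM against 58.7 and 39.5. Myeloid cells of the same library held 1764 CPM, so its lead held only over these endothelial labels. Even there, it fell below the arterial level in the cells with at most 2 UMIs over the fibroblast, epithelial and mural lists. When every cell was thinned to 1000 UMIs, so that each weighed the same, the lead over arterial cells came under 2-fold for Nr5a2 (1.62), Bcl6b (1.49), Prag1 (1.13) and Fscn1 (1.89), while that over venous cells stayed past it for all 12 leading genes.

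Over every other annotated type of at least 50 cells, the 10 genes with the largest lead were Car4, C1qtnf9, Nr5a2, Gpihbp1, Bcl6b, Rbp7, Cyp4b1, Prag1, Cd300lg and Tcf15. Cd300lg, a receptor of the CD300 family found on capillaries, stood at 107 CPM against 47.4 in arterial and 45.3 in venous cells. Tcf15, a basic helix-loop-helix factor that with Meox2 drives endothelial fatty acid uptake, was at 249, 111 and 24.6 CPM. Outside the endothelial labels the highest type reached 35.0 CPM for Gpihbp1 and 25.2 for Rbp7, 54.2-fold and 74.6-fold below the capillary level. C1qtnf9 was less restricted, with 64.0 CPM in TEC:mTEC2, an Aire-expressing medullary epithelial label. Within Endo-1, Cd300lg and Tcf15 came to 1.88 and 1.86 times the arterial level, under 2-fold.

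**Figure D2:**
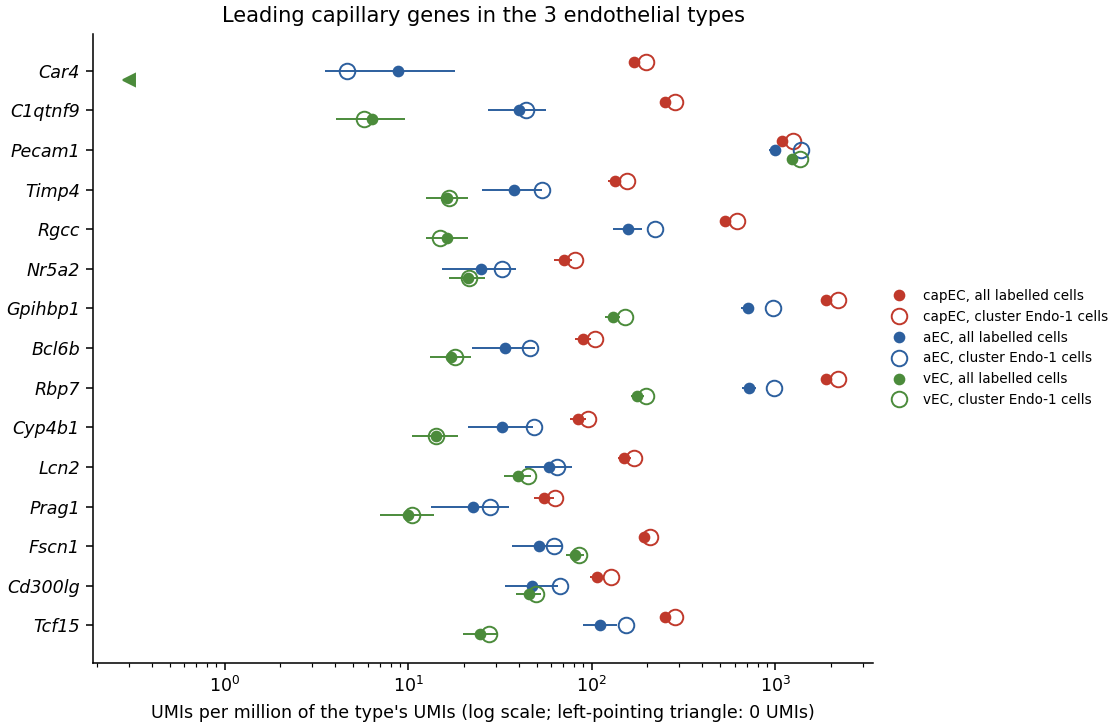
Level of the label markers and leading genes in CPM (log axis) in capillary (red), arterial (blue) and venous (green) cells; filled points are all labelled cells with 95% Poisson bars, open points are cells of Endo-1, and a left-pointing triangle marks 0 UMIs. Red points lie to the right for every gene except Pecam1, where the 3 labels lie together.

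Promoters, the 250 bases before the transcription start, were available for 10 of the 15 genes shown in that plot (RefSeq, build GRCr8, which is not the build of the counts). Pecam1, Gpihbp1, Bcl6b, Prag1 and Cd300lg are named only. The 4 printed here belong to both label markers and to Timp4 and Rbp7, leading genes with a match. Each is written 5′ to 3′ along the gene's strand, and capitals mark AGGAAG, a core of ETS-family binding sites, read on either strand. Car4 is at chr10:70325108-70325357 on the plus strand, C1qtnf9 at chr15:39091189-39091438 (plus), Timp4 at chr4:149985205-149985454 (minus) and Rbp7 at chr5:165177400-165177649 (minus).
Car4: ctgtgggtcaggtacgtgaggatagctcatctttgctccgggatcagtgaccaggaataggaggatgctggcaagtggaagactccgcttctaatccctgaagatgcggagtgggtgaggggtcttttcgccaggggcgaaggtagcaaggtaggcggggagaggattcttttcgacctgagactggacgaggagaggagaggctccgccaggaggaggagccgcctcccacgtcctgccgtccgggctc
C1qtnf9: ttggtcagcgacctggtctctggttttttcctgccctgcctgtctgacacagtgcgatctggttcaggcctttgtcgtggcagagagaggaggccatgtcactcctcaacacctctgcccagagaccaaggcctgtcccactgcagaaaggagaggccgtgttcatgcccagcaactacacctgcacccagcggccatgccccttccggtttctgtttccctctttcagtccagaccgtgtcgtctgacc
Timp4: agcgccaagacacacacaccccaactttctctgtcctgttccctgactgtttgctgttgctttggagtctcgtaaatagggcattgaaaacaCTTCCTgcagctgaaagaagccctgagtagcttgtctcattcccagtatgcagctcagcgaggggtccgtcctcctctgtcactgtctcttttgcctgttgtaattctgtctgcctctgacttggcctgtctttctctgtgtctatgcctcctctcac
Rbp7: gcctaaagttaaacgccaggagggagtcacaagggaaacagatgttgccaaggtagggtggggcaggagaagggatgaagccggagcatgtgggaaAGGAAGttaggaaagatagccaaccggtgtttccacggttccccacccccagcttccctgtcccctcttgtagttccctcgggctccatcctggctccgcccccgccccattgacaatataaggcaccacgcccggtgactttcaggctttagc
The match starts 158 bases before the start in Timp4, as CTTCCT on the printed strand, and 154 bases before it in Rbp7. AGGAAG occurred in 4 of the 10 promoters (40%: Timp4, Nr5a2, Rbp7 and Lcn2) and in 29.4% of all 27457 promoters of the same length. ACAATG, a motif of SOX factors, occurred in none of the 10 and in 10.9% of all promoters. AGATAA, a motif of GATA factors, likewise occurred in none of the 10 and in 10.0% of all. The 3 motifs do not contain each other, both strands were searched for each, and a match is a description of letters only.

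Each list count below is to be set beside the share over all genes. Against arterial cells 1.85% of all genes were higher and 5.48% lower, and against venous cells 4.03% and 3.38%. Within Endo-1 these shares were 3.72% and 4.58%, and 4.88% and 4.24%. Among 20 listed capillary genes, 19 could be compared. Against arterial cells 9 were at least 2-fold higher and 1 lower (median log2 ratio 0.78), and against venous cells 14 were higher and none lower (1.54). Within Endo-1 the counts were 6 and 1 against arterial and 15 and 0 against venous cells. Btnl9, a butyrophilin-like membrane protein, stood at 633 CPM against 415 in arterial and 19.6 in venous cells. Aqp7, a glycerol channel, was at 43.2, 28.7 and 3.04 CPM. Both were far above venous cells (32.2-fold and 14.2-fold) and lay under 2-fold over arterial cells. The member that was lower than in arterial cells was Tmem100, a membrane protein downstream of BMP signals, at 29.9 against 109.9 CPM.

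The fatty acid uptake list gave 4 of 14 compared genes higher than in arterial cells and 7 of 14 higher than in venous cells, with none lower in either. Within Endo-1 the first count was 2 of 12 (Gpihbp1 and Lpl) and the second again 7 of 14. Fabp4, a fatty acid chaperone, was at 10722 CPM against 5074 and 4044, and its relative Fabp5 at 323 against 141 and 89.3. Within Endo-1 both came under 2-fold over arterial cells, at 1.76 and 1.93. Cd36, the fatty acid translocase, was level with arterial cells (191 and 201 CPM) and 2.69-fold above venous cells. Pparg, the nuclear receptor of lipid storage genes, behaved likewise, at 145, 135 and 42.8 CPM. Meox2, the partner of Tcf15, did not separate the labels, at 390.2, 388 and 409 CPM. Lpl, lipoprotein lipase itself, was at 359, 311 and 280.3 CPM, and within Endo-1 at 354, 155 and 239.8, a 2.28-fold lead over arterial cells.

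Of 17 VEGF, angiopoietin and apelin genes 15 could be compared. Against arterial cells 3 were higher (Kdr, Apln and Esm1) and 1 was lower (Vegfa). Kdr, the main VEGF receptor of endothelium, was at 768 CPM against 367 and 265 (1.81-fold over arterial cells within Endo-1). Nrp1, a VEGF and semaphorin co-receptor, was at 819, 478 and 215 CPM, and Flt1, a decoy VEGF receptor, at 1844, 1267 and 1249. Both lay under 2-fold over arterial cells. Against venous cells 5 of the 15 were higher and none lower. Within Endo-1, 1 of 12 (Apln) was higher than in arterial and 4 of 12 higher than in venous cells, with none lower in either.

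Genes of angiogenic tip cells, which lead new sprouts, gave 4 of 9 compared members higher than in arterial and 5 higher and 1 lower than in venous cells. Within Endo-1, 3 of 9 (Apln, Nid2 and Chst1) were higher than in arterial cells and none lower. Against venous cells of Endo-1, 6 of 9 were higher and 1 lower. Esm1, a secreted proteoglycan of sprouting vessels, was at 124 CPM against 52.4 in arterial cells and 0 UMIs in venous cells, at least 149.6-fold. Its 2.37-fold lead over arterial cells rested on few of them, since 4 arterial cells held its 42 UMIs, and it was 1.72-fold within Endo-1. Apln, the ligand of the apelin receptor, was at 126 CPM against 12.5 and 11.1, but 1 cell gave 210 of its 561 UMIs and the level without that cell was 79.1 CPM. The leads over arterial cells also depended on the cells used. In the 155 capillary and 11 arterial cells with at most 2 UMIs over the fibroblast, epithelial and mural lists, Apln, Esm1 and Cxcr4 fell below the arterial level. After thinning, 36 of 517 Endo-1 cells had an Apln UMI, 55 an Esm1 UMI and 50 an Angpt2 UMI (Angpt2 is a ligand that loosens vessels), and 11 had both Apln and Esm1. The cell richest in Apln held 210 Apln, 109 Esm1, 23 Angpt2 and 29 C1qtnf9 UMIs of 13492, with 1 of Car4 and 1 of Plvap.

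Arterial genes placed capillary cells between the other labels. Of 18 compared members of the arterial list, 5 were lower and 1 higher than in arterial cells, and of 14 compared against venous cells 9 were higher and 1 lower. Gja4, a gap junction protein of arteries, was at 93.7 CPM (84.9 to 103) against 207 (177 to 241) in arterial and 7.74 (5.14 to 11.2) in venous cells. Jag1, a Notch ligand, was at 45.4, 129 and 35.7 CPM, and Fbln5, an elastic fibre protein, at 89.2, 177 and 18.2. Each was highest in arterial cells. Other arterial genes were level between capillary and arterial cells, among them Efnb2, the ephrin of arterial identity (220.5 and 226 CPM), Sox17 (383 and 383) and the netrin receptor Unc5b (69.9 and 59.9). Venous cells held these at 48.1, 164 and 6.63 CPM. Cxcr4, the receptor of Cxcl12, was at 40.2 CPM against 15.0 and 0.829, 1.95-fold over arterial cells within Endo-1.

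The genes with the largest arterial lead over capillary cells were Pi16, S100a4, Sox5, Tgfb2, Amd1 and Prune2. Pi16, a secreted peptidase inhibitor, stood at 86.1 CPM in capillary and 985 in arterial cells, but at 17.6 and 144 within Endo-1, and it is a member of the fibroblast list whose sum differed between these groups. Tgfb2, a growth factor, was at 60.9 against 329.6 CPM, and at 42.8 against 387 within Endo-1. The other 4 were between 4.44 and 9.48 times as high in arterial cells. S100a4 and Sox5 were higher still in the mural label, and the mural list was 280.0 CPM in capillary and 958 in arterial cells of Endo-1, where 7 of 61 arterial cells gave 89.4% of it. The part of mural RNA in the arterial comparison was not tested.

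Venous genes stood lower in capillary than in venous cells. Of 17 compared members of the venous list, 12 were at least 2-fold lower than in venous cells and none higher, with a median log2 ratio of -1.98. Selp, P-selectin, was at 42.0 CPM (36.2 to 48.5) against 872 (842 to 903), Sele, E-selectin, at 32.1 against 451, and Vcam1, an integrin ligand, at 27.2 against 318. Ackr1, a chemokine-scavenging receptor of venules, was at 40.0 against 421 CPM, and Vwf, the platelet-binding clotting factor, at 61.1 against 403. Nr2f2, the transcription factor of venous identity, was at 114 against 287 CPM. The 6 genes with the largest venous lead were Serpina3n, Ankrd55, Selp, Cmahp, Adamts18 and Calml4, between 17.3 and 25.2 times as high in venous cells. Against arterial cells the same list had 3 members higher (Ackr1, Selp and Sele) and 1 lower, but only Selp within Endo-1.

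Of 25 leukocyte adhesion and homing genes 19 were compared with venous cells, with 7 lower and 4 higher. The 4 higher were Podxl, a sialomucin of the luminal surface (370.4 against 92.6 CPM), Cx3cl1, a membrane-bound chemokine (50.8 and 20.7), and the chemokines Cxcl9 (80.2 and 34.8) and Cxcl16 (42.3 and 20.7). Cxcl11, which shares the receptor CXCR3 with Cxcl9, went the other way, at 5.39 against 73.0 CPM. In the cells with at most 2 UMIs over the fibroblast, epithelial and mural lists, Cxcl9 turned to 0.549 times the venous level (26 capillary and 36 venous UMIs), so its direction is not settled. Cxcl16 lay close to 2-fold and came under it in 8 of the alternatives, at 1.61 to 1.96. Members thus lay on both sides, with a median log2 ratio of -0.09.

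Thymic support factors, secreted or surface signals that act on thymocytes and stroma, numbered 28, of which 20 were compared with venous cells (6 higher, 2 lower) and 24 with arterial cells (1 higher, 5 lower). The 5 lower were Il7, Jag1, Wnt5a, Igf1 and Ccl25. Within Endo-1, 18 were compared with arterial cells, with 1 higher and 3 lower (Jag1, Pdgfa and Pdgfd), so only Jag1 was lower in both. Cxcl12, the chemokine that holds progenitors, was at 3286 CPM (3233 to 3340.2) in capillary, 3411 (3284 to 3541) in arterial and 378 (359 to 399) in venous cells. Kitlg, the ligand of the receptor Kit on early progenitors, was at 694, 577 and 283 CPM. Pdgfb, which recruits pericytes, was at 97.1, 87.4 and 25.4 CPM. These 3 were level with arterial cells and at least 2-fold above venous cells. Bmp4 and the alarmin Il33 were lower than in venous cells, at 26.5 against 65.5 and 289 against 1348 CPM. The 1 factor higher than in arterial cells was Ccl21, which the 21 cells with lymphatic genes carry: 1807 CPM over all capillary cells and 272 within Endo-1, against 870.2 and 113 in arterial cells. A single capillary cell gave 457 of the 958 UMIs within Endo-1, and the level there without it was 143 CPM. Without the cells of lymphatic or fibroblast genes the ratio to arterial cells was 1.30, so the remaining capillary cells were under 2-fold.

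Genes of the vessel wall and of transport across it were in part higher than in venous cells. Of 15 compared basement membrane genes 5 were higher and none lower, among them Col4a1, a chain of collagen IV (1649, 955 and 494 CPM in capillary, arterial and venous cells), and Lama4, the endothelial laminin chain (246, 222 and 75.7). Caveolar genes gave 3 of 10 higher: Cav1, the main coat protein of caveolae (1253, 754 and 407), Cav2 and Cavin2. Plvap, which forms the diaphragms of caveolae and fenestrae, ran the other way, at 1765 CPM against 1179 and 2686, and in 62.2%, 60.9% and 95.2% of thinned cells. Cldn5, the tight junction claudin of endothelium, was at 368, 172 and 77.7 CPM (1.78-fold over arterial cells within Endo-1).

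Transcription factor genes gave 7 of 31 compared members higher and 2 lower than in venous cells, and 3 higher and 1 lower of 33 against arterial cells. Over all genes, 4.03% were higher and 3.38% lower than in venous cells, and 1.85% higher and 5.48% lower than in arterial cells. The 1 lower of 33 does not exceed that last share. Klf2, a factor induced by flow, was at 1534, 1162 and 629 CPM, and Prdm1 at 33.7, 26.2 and 7.19. Meox1 was 3.02-fold above arterial cells yet below venous cells (71.7, 23.7 and 114 CPM). Few arterial UMIs stood behind the first ratio, which was 1.57 (95% exact interval 0.490 to 8.00) with cells thinned to 1000 UMIs, on 3 of them, and 1.77 (0.460 to 15.1) in the cells with at most 2 UMIs over the fibroblast, epithelial and mural lists, on 2. Of 13 compared Notch pathway genes 3 were higher than in venous cells, Notch4, Hes1 and Hey1, and none lower. Of 15 compared with arterial cells none was higher and 3 were lower, Notch3, Jag1 and Jag2. Notch3 is also on the mural list, of which 7 of 61 arterial cells of Endo-1 gave 89.4%. The part of mural RNA in its difference was not tested.

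Lists with few or no genes past 2-fold included antigen presentation by class I molecules (0 of 10 in either comparison and either direction) and 17 pan-endothelial genes, of which only Kdr and Cldn5 passed in either comparison, neither of them over arterial cells within Endo-1. Interferon-stimulated genes gave 0 of 17 against arterial cells and 2 of 16 higher against venous cells, though within Endo-1 1 was higher and 3 were lower than in arterial cells. Immediate-early and heat-shock genes, which enzymatic digestion can induce, gave 0 of 18 against arterial cells and 1 lower of 18, Atf3, against venous cells. Class II genes gave 5 of 6 lower than in arterial cells, where 1 arterial cell of Endo-1 held 242 of the 273 class II UMIs.

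**Figure D3:**
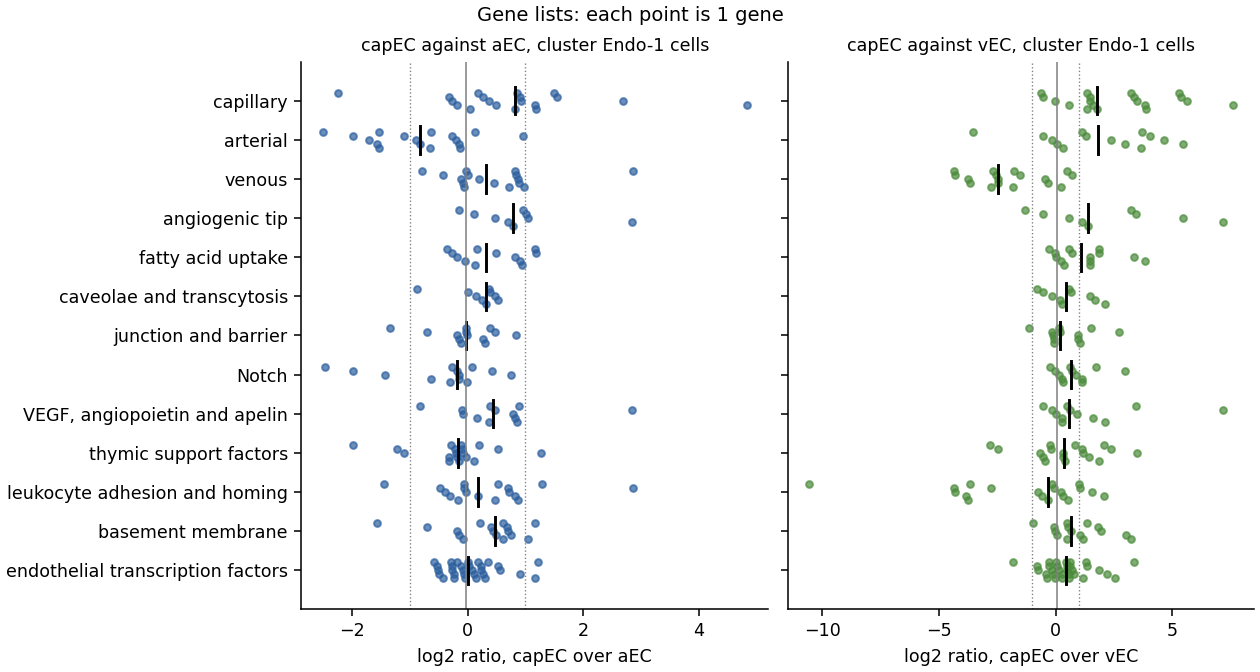
Each point is 1 gene of a list, placed by the log2 ratio of its level in capillary cells of Endo-1 to arterial cells (left) and venous cells (right); black bars are list medians, dotted lines mark 2-fold and the grey line is the median of all genes. The capillary list lies to the right in both panels, while the arterial list lies to the left against arterial and to the right against venous cells, and the venous list lies far to the left against venous cells.

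Cell by cell, the capillary and venous lists set capillary cells further from venous than from arterial cells. The arterial list put them between the other labels. In Endo-1 cells thinned to 2000 UMIs, the capillary list gave a median of 51 UMIs (quartiles 33 to 75) in capillary, 34 (22 to 45) in arterial and 22 (14 to 32) in venous cells. Fabp4 weighed heavily in this sum. It alone gave a median of 19 UMIs in capillary cells with no Car4 or C1qtnf9 UMI and 39 in those with 3 or more. The sum therefore does not show that the listed genes moved together. Medians for the arterial list were 3, 6 and 1, and for the venous list 3, 3 and 12. By gene, the arterial list within Endo-1 had a median log2 ratio of -0.82 to arterial cells (17 compared). To venous cells it was 1.83 (14 compared). Only 5 of 517 capillary cells (0.967%) reached the venous median of 12 on the venous list. A UMI of Mki67 or Top2a, genes of dividing cells, was found in 8 of 517 capillary (1.55%) and 3 of 284 venous cells (1.06%).

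Within the capillary label, cells differed by whether they held the label's own markers. Of the 517 capillary cells of Endo-1 with at least 2000 UMIs, 184 (35.6%) had a Car4 or C1qtnf9 UMI after thinning, 62 with 1, 30 with 2 and 92 with 3 or more. For the other labels the share was taken over all clusters, not Endo-1 alone. It was 1.81% of 332 venous and 6.90% of 87 arterial cells, which were deeper (medians of 9830 and 7548 UMIs). The 184 cells were shallower than the 333 without, with medians of 4701 and 6723 UMIs. Car4 and C1qtnf9 chose these groups, so their own difference is no result, and genes that move with them were chosen by the same cells and are described with no test. Among 3382 genes with at least 200 UMIs over both groups, 50 were at least 2-fold higher in the cells with marker UMIs (1.48% of genes) and 89 lower (2.63% of genes).

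Plvap was lower in each class with more marker UMIs. Its level was 2600.1 CPM (2536 to 2665) in cells with no marker UMI, 1417 (1303 to 1537) with 1, 1109 (969 to 1263) with 2 and 174 (138 to 216) with 3 or more. A Plvap UMI was found in 82.6%, 46.8%, 30% and 13.0% of thinned cells in the same order. Cldn5 ran opposite, at 225, 475, 510.3 and 974 CPM, with a UMI in 21.6% of the first and 70.7% of the last class. Capillary cells thus ranged from Plvap-rich cells with little claudin to Cldn5-rich cells with little Plvap. Pecam1 moved less, from 1340.2 to 875 CPM, and Cdh5, the cadherin of endothelial junctions, from 1025 to 1614.

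Higher in the 184 cells were Timp4 (328 against 74.0 CPM), Bcl6b (195 and 60.4) and Tcf15 (487 and 189). Prnd, which encodes the prion-like protein doppel, was at 160.1 against 41.8 CPM, Nes, the intermediate filament nestin, at 148 against 34.7, and Cd44, a hyaluronan receptor, at 123 against 29.0. Ccn1, a matrix-associated signalling protein, was 3.13-fold and Klf2 2.17-fold higher. Gpihbp1, a marker of both groups, was 1.90-fold and Fabp4 1.62-fold higher, both under 2-fold. Apln was 16.8-fold higher, with 1 cell giving 50.7% of its UMIs in the 184 cells. The haemoglobin genes Hba-a1 and Hba-a2 headed the ranking through a single cell.

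Lower in the 184 cells, beside Plvap, were Tm4sf1, a tetraspanin-like protein of angiogenic endothelium (634 against 1858 CPM), the taurine transporter Slc6a6 (103 and 482) and S100a6, a calcium-binding protein (145 and 633). Vegfc, the lymphangiogenic growth factor, was at 25.0 against 93.9 CPM, and Gja4, of the arterial list, at 129 in the class with no marker UMI against 6.35 in the class with 3 or more. Ramp3, a partner of the adrenomedullin receptor, and Entpd1, an ectonucleotidase, were 0.174 and 0.266 times the level of the other cells. Cxcl12 was 0.598 times as high. Ackr1 was at 2.78 CPM in the 184 cells against 52.5 in the others, on 3 and 127 UMIs. Selp was at 10.2 against 69.1 CPM, on 11 and 167 UMIs, and 1 cell gave 81.8% of the 11. Few of the 333 cells without marker UMIs held either gene. After thinning, 5.71% of them had an Ackr1 UMI and 5.11% a Selp UMI.

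By list, this split, with 1.48% of all genes higher and 2.63% lower, put 5 of 17 compared capillary genes higher and 1 lower. Both label markers were among the 5, with Rgcc, Timp4 and Tcf15. Tip genes gave 3 of 6 higher (Apln, Esm1 and Angpt2), but the cell richest in Apln held 210 of the 414 Apln, 109 of the 266 Esm1 and 23 of the 128 Angpt2 UMIs of the 184 cells. Without it the ratios were 8.40, 1.44 and 2.18, so Esm1 came under 2-fold and 2 of 6 were higher. Of the other lists, arterial genes gave 3 of 9 lower (Gja4, Vegfc and Mgp) and venous genes 2 of 9 lower (Nr2f2 and Il1r1). With the split made after thinning to 1000 UMIs, Nr2f2 came to 0.694 times the level of the other cells and the tip gene Esm1 to 1.90 times, both inside 2-fold. Basement membrane (14 compared), class I (8), interferon-stimulated (10), immediate-early and heat-shock (17) and fibroblast genes (5) had none past 2-fold in either direction.

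**Figure D4:**
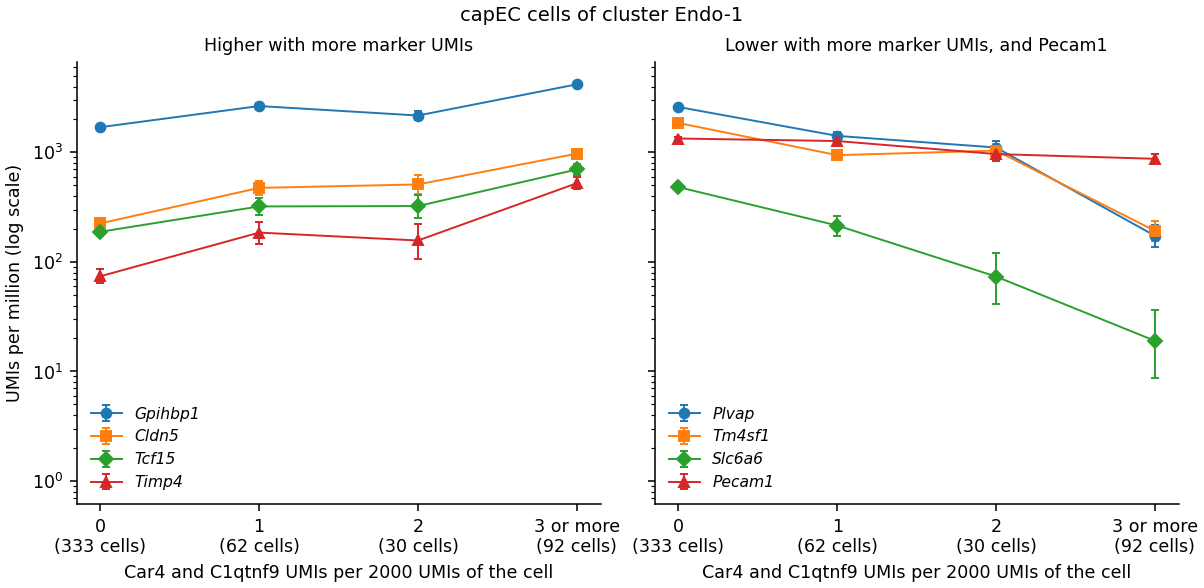
Level in CPM (log axis) with 95% Poisson bars in capillary cells of Endo-1 by their Car4 and C1qtnf9 UMIs after thinning to 2000 UMIs (0, 1, 2, 3 or more; 333, 62, 30 and 92 cells). Gpihbp1, Cldn5, Tcf15 and Timp4 (left) are highest in the class with 3 or more, where Plvap, Tm4sf1 and Slc6a6 (right) are lowest and Pecam1 moves little.

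On the section, the authors had given each square bin of 20 chip units up to 3 cell type labels by robust cell-type decomposition (RCTD), a method that estimates which types share a bin's RNA. Of 592087 labelled bins, 203 had capEC as the first label (0.0343%), and 60 of these (29.6%) were marked confident, against 55.0% for aEC and 64.1% for vEC. The median weight of the first label was 0.389, and 3 of the 203 bins were given a single type, so nearly all shared their RNA with other cells. As a second label capEC stood in 2915 bins, most often behind DN (1619 bins) and DP (564 bins), labels of early and of cortical thymocytes.

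By region, the first label was found in 0.0198% of cortex bins (81 of 409180), 0.0754% of capsular bins (93 of 123373), 0.0423% of mECA bins (17 of 40180) and 0.0620% of mEFA bins (12 of 19354), the last being region names of the files. Relative to cortex this was 3.81-fold for the capsular region (95% exact interval 2.80 to 5.19), 2.14-fold for mECA (1.19 to 3.64) and 3.13-fold for mEFA (1.55 to 5.77). As first label, aEC was 11.5-fold as frequent in the capsular region as in cortex, and vEC was 11.7-fold as frequent in mEFA. No region passed 3.81-fold for capEC as first label.

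Counted in any of the 3 places, capEC was found in 3170 bins, and the order of the regions changed. The shares were then 0.507% in cortex, 0.728% in the capsular region, 0.226% in mECA and 0.553% in mEFA. mECA thus went from 2.14 times the cortex share to 0.447 times it. The other endothelial labels also depended on the counting. For aEC the capsular ratio to cortex went from 11.5 to 2.12, and for vEC the mEFA ratio went from 11.7 to 3.02. By first label in segmented cell bins these ratios were 4.23 and 5.90. Within a bin, fewer cells of a type and less RNA per cell cannot be told apart.

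Bins with capEC first lay a median of 160 chip units from the capsule, against 349 for all labelled bins, 0 for aEC and 540 for vEC. Among the 203 bins, 34 (16.7%) touched another capEC bin, against 0.255% of all labelled bins, and 30 (14.8%) touched a bin labelled as vascular smooth muscle or pericyte, against 0.477%. A bin of any endothelial label was next to 37.9% of them, against 1.08% of all. Of the other endothelial labels, 21.1% of aEC and 11.1% of vEC bins touched a smooth muscle or pericyte bin, and 40.7% and 47.8% touched a bin of an endothelial label. Median depth was 389 UMIs in bins with capEC first, 343 with aEC and 478 with vEC, against 326 over all labelled bins.

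**Figure D5:**
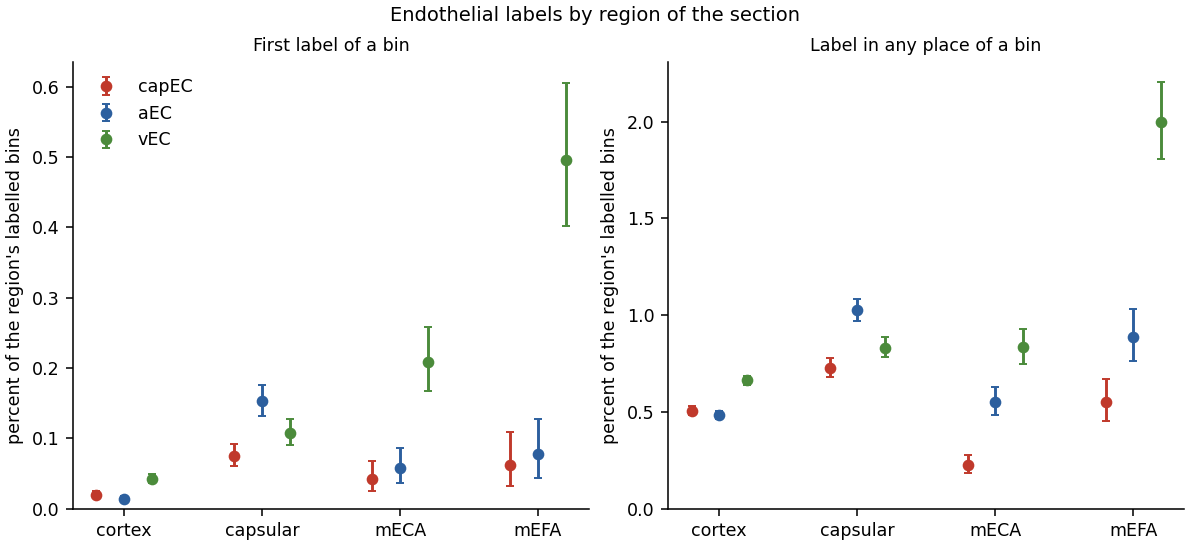
Percent of labelled bins with an endothelial label in cortex, capsular, mECA and mEFA regions, with 95% Clopper-Pearson bars, counting the first label only (left) and a label in any of the 3 places (right). For capEC the first-label share is lowest in cortex, while counted in any place it is lowest in mECA.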

How the data were processed

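Single-cell libraries were counted with Cell Ranger 8.0.0 on the build mRatBN7.2 and handled in Seurat 5.3.0, per the submitters' processing notes; the annotation and the strand setting are not given in the sources used here. The deposited stromal matrix holds raw UMI counts of 34034 features, and the authors' deposited table gives each cell's labels, a projection score between 0 and 1 and mitochondrial percent. The section's tables give, per bin, UMI counts, region, distance to the capsule and up to 3 labels, whose weights are fractions deposited by the authors (RCTD, per the series' design text).

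Counts were summed over the cells of a label and divided by their total to give CPM (per 1000000 UMIs). Poisson, ratio and share intervals are exact at 95%. A gene was compared with a mean of at least 10 CPM and 20 UMIs over both labels, and called past 2-fold. A count under 3 UMIs was set at 3 to bound a fold. Ratios given with an exact interval for thinned cells, or for cells with at most 2 UMIs over the fibroblast, epithelial and mural lists, used the counts unchanged. The script was tested on simulated counts. Random thinning used seed 7. No doublet caller was run, and no cell was removed beyond the authors' annotation. There was 1 sample per group, so no test was made. Genes were named by rank (12 leaders over both labels, 10 over all types of at least 50 cells, 6 of each other label), and, from 31 lists (421 of 424 genes matched), by size of ratio or role. Members and lists were chosen with earlier results of these data known. The split of capillary cells by Car4 and C1qtnf9 UMIs, its minimum of 200 UMIs a gene, the Endo-1 comparison and the lymphatic and fibroblast minima were chosen after seeing the data. Distances are chip units. Scripts ran in Python 3.11.15 with scipy 1.17.1, numpy 2.4.6, matplotlib 3.10.9 and pandas 2.3.3.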

Additional observations from a re-analysis of the deposited data

Results flagged for a closer look

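Barcodes of the stromal library without a label held capillary marker RNA. Among these 2934 barcodes, Car4 gave 24 UMIs in 11 barcodes (2.77 CPM of their summed UMIs) and C1qtnf9 64 UMIs in 26 barcodes (7.39 CPM). Pecam1 gave 463 UMIs in 142 of them and Gpihbp1 288 in 66. In labelled capillary cells the same genes stood at 171, 249.7, 1093 and 1896 CPM. Whether these barcodes hold capillary cells or free RNA was not tested.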

How the results depend on the processing

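No paired analysis was possible because there was a single sample of each kind. Of 152 ratios of named genes to arterial or venous cells, 102 lay past 2-fold. Scaling by the median of ratios over genes took 2 of these under it (Cxcl16 and Hes1), and totals without mitochondrial, ribosomal protein and haemoglobin genes took 3 (these and Ackr1). Restriction to Endo-1 took 11 under it, leaving out cells of lymphatic or fibroblast genes 12, the mean of the cells' CPM 6, thinning to 2000 UMIs 9 and to 1000 UMIs 11. Keeping cells with at most 2 UMIs over the fibroblast, epithelial and mural lists left 155 capillary, 11 arterial and 70 venous cells and took 17 of 99 under it. It also reversed 6 ratios: Lcn2 (0.951), Esm1 (0.294), Apln (0.864), Cxcr4 (0.893) and Sele (0.663) to arterial cells and Cxcl9 (0.549) to venous cells. Sele also reversed when thinned to 1000 UMIs (0.882). Glycam1 to arterial cells reversed in Endo-1 (0.408) and without its richest cell (0.720).

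Counts of genes depended on the settings. The 174 genes higher than in arterial cells became 263 with the mean of the cells' CPM, 319 thinned to 2000 UMIs, 34 at a mean of at least 50 CPM, 347 with no such minimum, 46 at 3-fold, 333 in Endo-1 and 319 without cells of lymphatic or fibroblast genes. The 517 lower became 328 thinned to 1000 UMIs, 134 at 50 CPM and 191 at 3-fold. Against venous cells, the 372 higher became 600 and 588 under the 2 thinnings, 690 in cells with at most 2 UMIs of the other lists, 156 at 50 CPM, 783 with no minimum and 159 at 3-fold. The 312 lower became 129, 584 and 141 under the last 3. Endo-1 cells alone were 4.04% of annotated cells. Splitting capillary cells at 2 or more marker UMIs (122 cells) gave 139 genes lower in place of 89.

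On the section, the capsular to cortex ratio of 3.81 was 5.21 for confident labels, 2.69 in segmented cell bins, 2.62 in bins at or above the median depth, 1.72 by summed weights, 1.66 in bins of a single type, 1.44 and 1.59 counting capEC in any place of 20-unit and cell bins, and 2.47 and 6.28 on either side of the median x. The mECA ratio of 2.14 reversed to 0.447 and 0.604 in any place and 0.542 by weights. The mEFA ratio of 3.13 came to 1.09, 1.01 and 1.14 there. The cause was not tested. Bins of a single type gave no mECA or mEFA value, and no initial cluster is named capEC, so a label from initial clusters alone was not run. Car4 and C1qtnf9 shares are limited by depth, since cells thinned to 2000 UMIs can miss RNA they hold.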
